A study of Mus musculus with 2 samples.

Results

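Matrix metalloproteinases are zinc-dependent enzymes that cut collagens, elastin and other matrix proteins, and the tissue inhibitors of metalloproteinases (TIMPs) bind and block them. The genes described here are 9 of this system, 6 proteinases (Mmp8, Mmp9, Mmp12, Mmp13, Mmp14, Mmp19) and 3 inhibitors (Timp1, Timp2, Timp3). They were found by symbol in the gene lists of both libraries, 9 of 27998 genes, with no threshold on their values. The series measured nonparenchymal cells of the liver, which are its cells other than hepatocytes, by droplet single-cell RNA sequencing. The wild-type library came from C57BL/6 mice and the yap1 library from mice with floxed Yap1 alleles and a Cre driven by Lyz2, a gene that myeloid cells use. Which exons of Yap1 are floxed is not stated in the labels. Mice of both genotypes had received carbon tetrachloride (CCl4), a hepatocyte toxin used to bring about fibrosis, 4 times. Ages are not stated in the labels. Each library pooled cells from 3 mice and each genotype had 1 library, so the mice cannot be told apart, no difference below has a replicate check, and none was tested.

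In liver fibrosis these genes are known from several cell types. Neutrophils store the collagenase MMP8 and the gelatinase MMP9 in granules, macrophages make the elastase MMP12 and the collagenase MMP13, and stellate cells are a main source of TIMP1. MMP14, which is anchored in the cell membrane, activates other proteinases at the cell surface with TIMP2 as a partner, and TIMP3 stays bound to the matrix.

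Of the 9 genes, Mmp13, Mmp12 and Mmp8 lie in this order on mouse chromosome 9 within 296 kb that hold 7 Mmp genes. Yet Mmp8 was read mostly in neutrophil-like cells, Mmp12 in macrophage-like and Kupffer cell-like cells, and the sparse Mmp13 mostly in macrophage-like cells. The 100 bases before their RefSeq starts (build GRCm38.p6, plus strand) are therefore shown, 5′ to 3′. Capitals mark a match to TGANTCA, the AP-1 motif, or to TTNNGCAA, a C/EBP motif, each searched on both strands.
Mmp13, chr9:7272414-7272513, AP-1 match: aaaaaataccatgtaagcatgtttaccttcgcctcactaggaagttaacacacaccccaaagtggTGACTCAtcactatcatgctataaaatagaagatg
Mmp12, first start, chr9:7344297-7344396, C/EBP match: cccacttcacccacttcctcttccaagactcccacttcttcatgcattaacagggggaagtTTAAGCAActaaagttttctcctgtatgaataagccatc
Mmp12, second start, chr9:7347274-7347373, AP-1 match: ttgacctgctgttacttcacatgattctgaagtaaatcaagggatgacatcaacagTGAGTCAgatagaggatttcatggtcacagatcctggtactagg
Mmp8, chr9:7558329-7558428, C/EBP match: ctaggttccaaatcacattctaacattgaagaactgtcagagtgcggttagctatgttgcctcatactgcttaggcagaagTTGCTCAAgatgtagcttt

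The AP-1 match of Mmp13 began 35 bases before its start and was followed by a TATAAA at 16 bases. The C/EBP match of Mmp8 began 19 bases before its start. Of 32851 RefSeq promoter windows of 250 bases before a start, 6.75% held the AP-1 letters and 9.56% the C/EBP letters, so each match alone is common. The motifs did not overlap another of the motifs searched. RefSeq windows were at hand for 7 of the 9 genes, 8 windows in all, and not for Mmp9 and Mmp19. The GC box letters GGGCGG, on either strand, stood 8 to 37 bases before the starts of Mmp14, Timp1, Timp2 and Timp3 and in none of the chromosome 9 windows; 32.7% of all windows held them. These matches describe the letters and name no factor that acts there.

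The wild-type library held 5269 barcodes and 30386545 UMIs (unique molecular identifiers, each a counted RNA molecule), and the yap1 library 4731 barcodes and 34234353 UMIs. After filters 4847 and 4149 barcodes were kept. Cells were assigned to classes by fixed marker genes, none of which is among the 9, and each class is called by its name with "-like". The comparison took the 11 classes that had 50 or more cells in both libraries. At most 1 marker of a class was higher in another class, except in conventional dendritic cell 2-like cells, where 3 and 4 of 5 markers were highest. The cells were assigned by these same markers, so this describes the classes and does not test them. Yap1 itself had 2 and 1 UMIs in monocyte-derived macrophage-like cells and 0 and 0 in Kupffer cell-like cells, so its counts check neither the deletion nor the labels. The libraries shared 5 barcodes. Values below are given for the wild-type and then the yap1 library. Levels are CPM, the UMIs of a gene per 1000000 UMIs of its class, with 95% Poisson intervals in parentheses, and ratios are yap1 over wild type with 95% binomial intervals. All intervals cover counting error only.

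**Figure D1:**
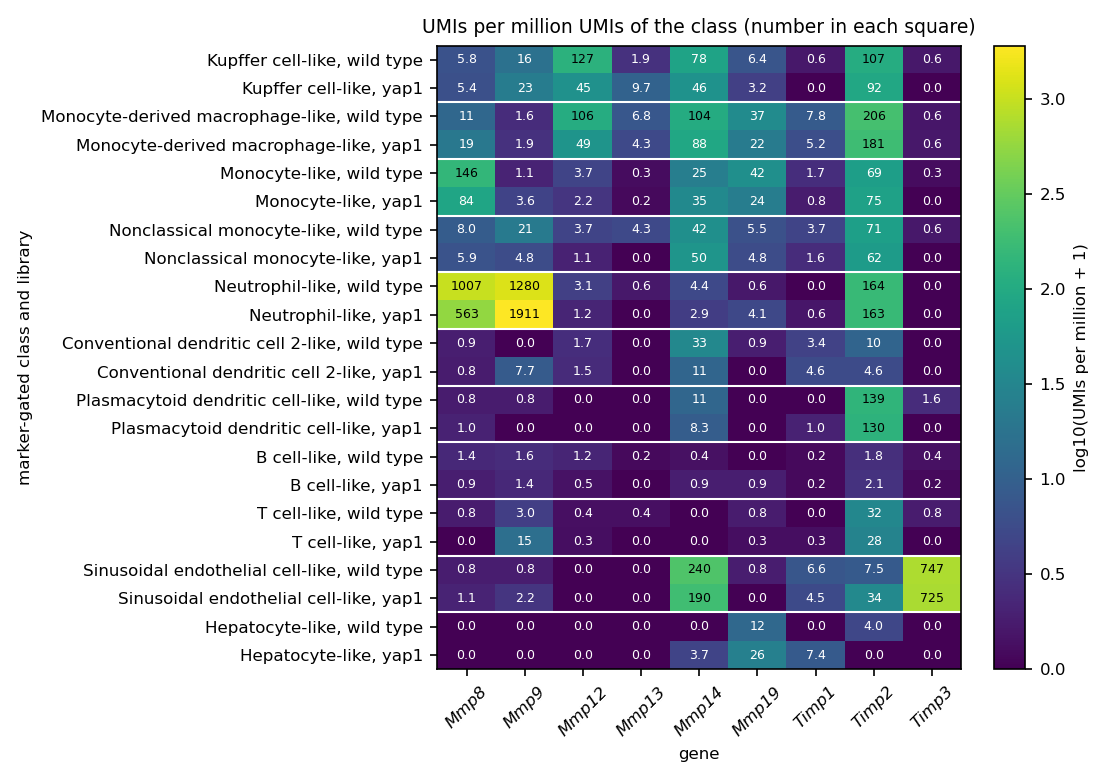
Levels of the 9 genes (columns) in the 11 compared classes of each library (rows), in CPM; the color is log10 of the level plus 1. Mmp8 and Mmp9 stand out in neutrophil-like cells, at 1007 and 1280 CPM in the wild-type library, and Timp3 in sinusoidal endothelial cell-like cells, at 747 CPM, while Timp2 is spread over most myeloid classes.

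The 9 genes fell into 4 patterns by cell class. Mmp8 and Mmp9 were neutrophil transcripts, with Mmp8 also in monocyte-like cells. Mmp12 was read in macrophage-like and Kupffer cell-like cells, Mmp13 sparsely in macrophage-like cells, and Mmp19 in monocyte-like and macrophage-like cells. Mmp14 and Timp2 were broad, and Timp3 was endothelial and mesenchymal. Timp1 was sparse in every compared class. B cell-like cells, which should lack most of these transcripts, held all 9 at 2.1 CPM or less in both libraries and serve as the background of free RNA.

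Of 99 pairs of gene and class, 33 had at least 20 UMIs over both libraries. Of these, 11 were lower in the yap1 library by at least 1.5-fold and 4 were higher, 33.3% and 12.1%, beside 7.68 percent lower and 8.12 percent higher over all 87223 pairs of gene and class with as many UMIs. All 11 lower pairs were proteinases: Mmp12 in 3 classes, Mmp8, Mmp14 and Mmp19 in 2 each, and Mmp9 and Mmp13 in 1 each. Most of the 33 pairs were proteinases, and most inhibitor pairs were Timp2. In macrophage-like cells Timp1, with a ratio of 0.674, lay just inside the limit, while Mmp13, at 0.630, was counted as lower. The 4 higher pairs were Mmp8 in macrophage-like cells, Mmp9 in monocyte-like and T cell-like cells, and Timp2 in sinusoidal endothelial cell-like cells. Pairs of a gene across classes share that gene and are not independent. The share over all genes was not matched to the UMI counts of the members, so the difference from it was not tested. Some lower pairs rest on few UMIs or on 1 cell. Among them are Mmp12 in monocyte-like cells, Mmp13 in macrophage-like cells, with an interval that includes 1, and Mmp12 in macrophage-like cells. After leaving out the 1 cell of each library with most UMIs of the gene, 27 pairs remained with 20 UMIs, 8 of them lower and 4 higher. The share over all genes was not computed for this setting.

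**Figure D2:**
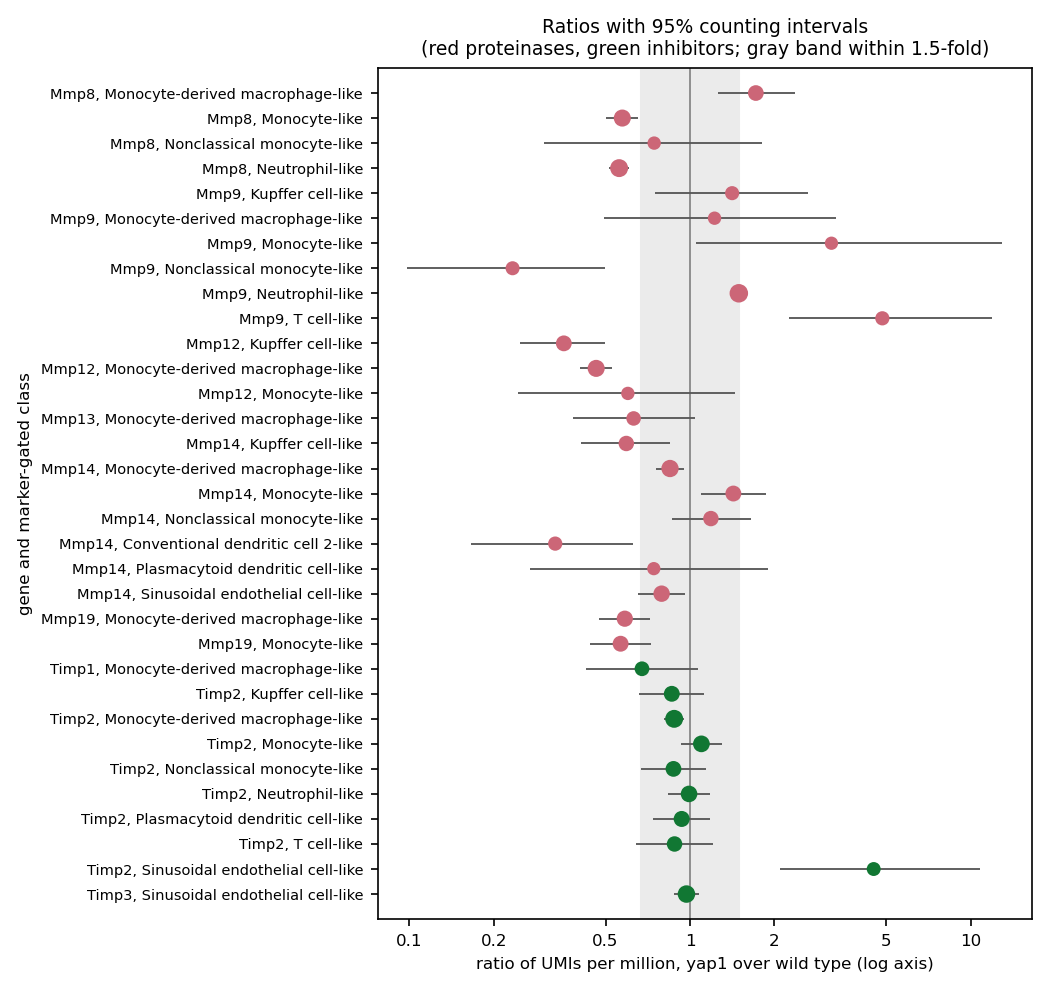
Ratio of the level in the yap1 over the wild-type library (log axis) for the 33 pairs of gene and class with at least 20 UMIs; bars are 95% counting intervals, larger points hold more UMIs, and the gray band spans 1.5-fold either way. Proteinases (red) lie on both sides of the band, from 0.233 to 4.85, while 9 of the 10 inhibitor pairs (green) lie inside it.

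By class the counts were small, and the share of all genes with as many UMIs that passed 1.5-fold is given beside each. In monocyte-derived macrophage-like cells 3 of 8 genes with enough UMIs were lower and 1 higher, beside 6.36 percent and 5.24 percent of all genes. In monocyte-like cells 3 of 6 were lower and 1 higher, beside 5.95 percent and 7.38 percent. In Kupffer cell-like cells 2 of 4 were lower and 0 higher, beside 9.16 percent and 9.94 percent. In neutrophil-like cells 1 of 3 was lower and 0 higher, beside 7.5 percent and 16.9 percent. In nonclassical monocyte-like cells 1 of 4 was lower and 0 higher, beside 9.3 percent and 5.86 percent, and in conventional dendritic cell 2-like cells 1 of 1 was lower, beside 10.2 percent lower and 8.66 percent higher. In T cell-like cells 1 of 2 was higher and 0 lower, beside 6.22 percent and 6.37 percent, and in sinusoidal endothelial cell-like cells 1 of 3 was higher and 0 lower, beside 6.93 percent and 9.44 percent. In plasmacytoid dendritic cell-like cells 0 of 2 passed either way, beside 8.16 percent lower and 7.34 percent higher. No member had 20 UMIs in B cell-like cells (4.92 percent of genes lower and 5.8 percent higher) or in hepatocyte-like cells (10.4 percent and 21.3 percent). The median log2 ratio of the genes counted was -0.48 in Kupffer cell-like, -0.40 in macrophage-like and -0.30 in monocyte-like cells, beside 0.01, -0.00 and -0.01 over all genes. In neutrophil-like cells the median over all genes was itself 0.15, and that of the 3 members -0.01.

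Mmp8 (ENSMUSG00000005800, chr9:7558456-7568485, GRCm38), a collagenase of neutrophil granules, was lower in the yap1 library in both classes where it was abundant. Neutrophil-like cells held 1611 UMIs in 433 cells and 956 UMIs in 476 cells, 1007 CPM (959 to 1058) and 563 CPM (528 to 599.8). The intervals did not overlap, and the ratio was 0.559 (0.515 to 0.606). It stayed between 0.445 and 0.584 under 10 alternative processings. With each cell thinned to 1000 UMIs, 32.7% (28.0 to 37.7%) of 379 and 19.2% (15.5 to 23.4%) of 401 neutrophil-like cells held an Mmp8 UMI, leaving out 54 and 75 shallower cells. Unthinned shares were 44.3% and 30.7%, at median depths of 2866 and 3012.5 UMIs, against 0.554% and 0.442% of B cell-like cells at 3656.5 and 4409.

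Neutrophils make granule proteins early in their maturation, and a small group of neutrophil-like cells carried those transcripts. Cells with at least 10 UMIs of Ngp, Camp and Ltf together, which encode granule proteins, stood apart: the lowest held 37 and 44 such UMIs, and the highest cell below the limit 9 and 8. They were 44 of 433 (10.2%, 7.48 to 13.4%) and 21 of 476 (4.41%, 2.75 to 6.67%) neutrophil-like cells, and they held 54.5% and 58.4% of the Mmp8 UMIs of the class. In them Mmp8 stood at 1954 CPM (1827 to 2087) and 2041 CPM (1875 to 2218), with a ratio of 1.04 (0.938 to 1.16). In the other 389 and 455 cells Mmp8 stood at 637 CPM (592 to 685) and 279 CPM (253 to 308), with a ratio of 0.438 (0.387 to 0.496). The class difference thus comprised both a smaller share of granule-transcript cells and a lower level in the other cells. Those other cells were not free of granule transcripts. Ngp stood at 85.2 and 26.7 CPM in them, with a ratio of 0.313 (0.209 to 0.460), while Camp held 6 and 7 UMIs and Ltf 8 and 10. The part of remaining granule-transcript expression in the Mmp8 value there was not tested. Lcn2, whose protein forms a complex with MMP9, had a ratio of 1.01 in the granule-transcript cells and 0.646 in the others.

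Mmp9 (ENSMUSG00000017737, chr2:164940780-164955850), the gelatinase of neutrophils, went the other way in the same cells. Neutrophil-like cells held 2048 and 3246 UMIs, 91.2% and 89.7% of all Mmp9 UMIs of their libraries. Levels were 1280 CPM (1226 to 1337) and 1911 CPM (1846 to 1978), with a ratio of 1.49 (1.41 to 1.58), just under 1.5-fold; scaled by the median of ratios over genes it was 1.35. In granule-transcript cells the levels were 1549 and 1920 CPM, with a ratio of 1.24 (1.11 to 1.39), and in the others 1176 and 1910 CPM, with a ratio of 1.62 (1.52 to 1.73). The thinned shares of cells with a UMI were 64.4% (59.3 to 69.2%) and 78.8% (74.5 to 82.7%). Thus in the yap1 library Mmp9 stood at nearly the same level in granule-transcript cells and in the other neutrophil-like cells. In the wild-type library it was lower in the others.

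**Figure D3:**
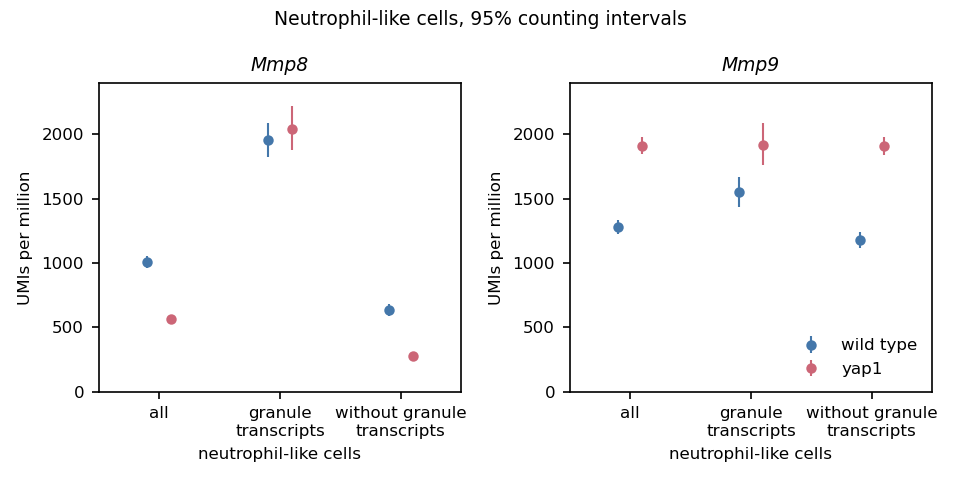
Levels of Mmp8 (left) and Mmp9 (right) in CPM in all neutrophil-like cells and in those with and without at least 10 UMIs of granule transcripts; points are the value of a library and bars its 95% counting interval. Mmp8 coincides between libraries in granule-transcript cells, at 1954 and 2041 CPM, and separates in the others, at 637 and 279 CPM, where Mmp9 is higher in the yap1 library.

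In the other compared classes Mmp9 was at 23 CPM or less. T cell-like cells held 8 UMIs in 8 cells and 43 UMIs in 23 cells, 3.04 CPM (1.31 to 5.99) and 14.7 CPM (10.7 to 19.9), with a ratio of 4.85 (2.25 to 11.9). The summed level of the 7 neutrophil markers in the T cell-like class was 113 and 85.4 CPM. Of the 23 yap1 cells, the 3 with most Mmp9, at 6, 4 and 3 UMIs, held none of these markers. The part of neutrophil RNA in this ratio was not tested. Monocyte-like cells held 4 and 18 UMIs. Nonclassical monocyte-like cells held 34 and 9 UMIs, with a ratio of 0.233 (0.0983 to 0.496), and the neutrophil markers there stood at 6597 and 487 CPM, whose part in this value was not tested; with classes taken from clusters in place of marker gates the ratio was 1.04. In Kupffer cell-like cells 18 of 25 wild-type UMIs came from 1 cell.

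Mmp8 was lower in monocyte-like cells of the yap1 library too. Those cells held 517 and 418 UMIs, 146 CPM (134 to 159) and 83.6 CPM (75.8 to 92.1), with a ratio of 0.574 (0.503 to 0.654) that was past 1.5-fold under 10 of 10 alternatives. The serine proteinases Elane, Prtn3 and Ctsg, which young myeloid cells load into azurophil granules, were lower beside it, with ratios of 0.301, 0.475 and 0.2999. Cells with a UMI of these genes made up 41.8% (36.1 to 47.7%) and 33.2% (28.2 to 38.6%) of monocyte-like cells. In them Mmp8 stood at 230.4 and 148 CPM, with a ratio of 0.645 (0.552 to 0.752), and in the others at 64.3 and 43.7 CPM, with a ratio of 0.680 (0.526 to 0.879). The level was thus lower in the yap1 library in both groups. Beside these values, the 6 markers of monocyte-derived macrophages in monocyte-like cells summed to 1103 and 2034 CPM and the 7 neutrophil markers to 463 and 741 CPM, both higher in the yap1 library. Their part in the values of Mmp8, Mmp14 and Mmp19 in this class was not tested.

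In monocyte-derived macrophage-like cells Mmp8 was low and had the opposite sign. They held 57 and 160 UMIs, 11.3 CPM (8.59 to 14.7) and 19.5 CPM (16.6 to 22.7), with a ratio of 1.72 (1.26 to 2.37), which was 1.40 with cells weighted equally. The neutrophil markers in the class stood at 198 and 419 CPM, and their part in this value was not tested. After thinning, 2.16% and 0.952% of cells held a UMI, an order that goes against the CPM, so no order is read from the shares. Mmp8 was lower at each step between the gated groups, from 170 CPM in wild-type monocyte-like cells with few shared macrophage markers to 111 CPM in those with at least 3, and to 15.7 and 6.13 CPM in macrophage-like cells with and without the monocyte gate. The yap1 library showed 107, 54.3, 21.4 and 15.02 CPM in the same groups.

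Mmp19 (ENSMUSG00000025355, chr10:128790910-128800824), a secreted proteinase with basement membrane substrates, was lower in CPM in the yap1 library in monocyte-like and macrophage-like cells alike. Monocyte-like cells held 148 and 118 UMIs, 41.7 CPM (35.3 to 49.0) and 23.6 CPM (19.6 to 28.3), with a ratio of 0.566 (0.4404 to 0.7255). Monocyte-derived macrophage-like cells held 188 and 180 UMIs, 37.4 CPM (32.2 to 43.1) and 21.9 CPM (18.8 to 25.3), with a ratio of 0.586 (0.475 to 0.722). Within each library the levels of the 2 classes did not differ beyond their intervals. The ratio lay between 0.465 and 0.641 in the 4 groups of monocyte-like and macrophage-like cells split by markers. Among monocyte-like cells it was 0.563 with and 0.612 without a UMI of the azurophil proteinases. In the macrophage-like class the ratio was 0.743 without the 5 cells with most Mmp19 and 0.716 with classes from clusters. After thinning, 8 of 370 and 11 of 525 macrophage-like cells held an Mmp19 UMI, so no order is read from these shares. For monocyte-like cells the thinned counts were 11 of 291 and 7 of 330. Macrophage-like cells without the monocyte gate had unthinned shares of 11.2% and 14.3%, an order that goes against the CPM. There, 17 of the 64 wild-type UMIs came from 1 cell. Nonclassical monocyte-like cells held 9 and 9 UMIs, Kupffer cell-like cells 10 and 3, and hepatocyte-like cells 3 and 7.

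**Figure D4:**
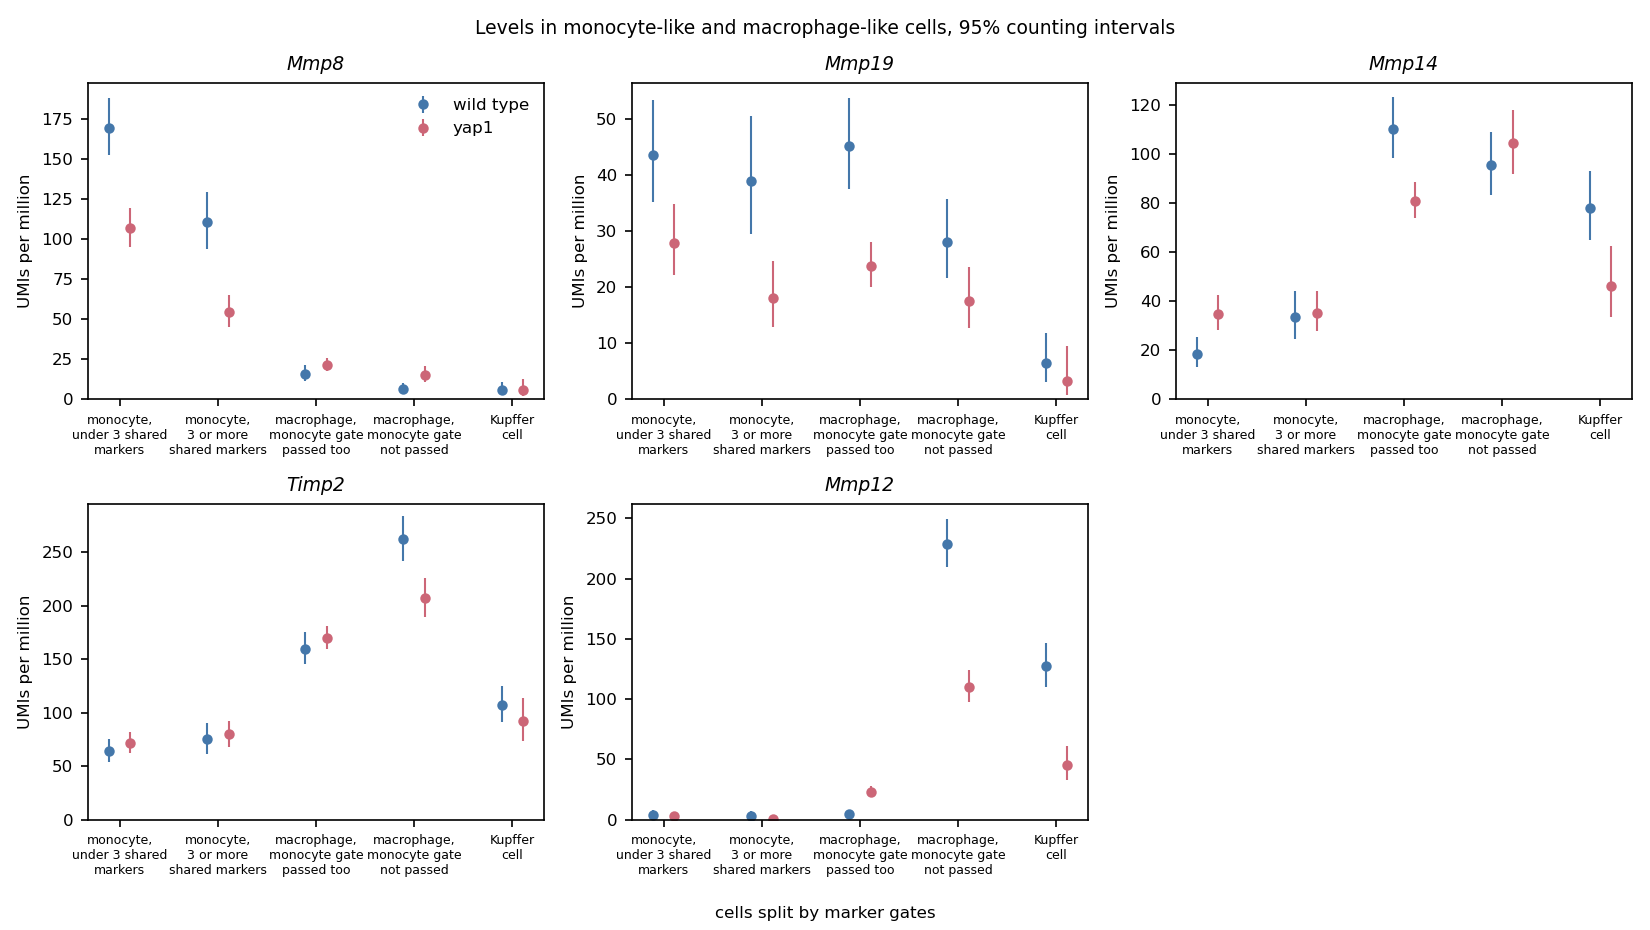
Levels in CPM of 5 genes in monocyte-like cells with under 3 or at least 3 shared macrophage markers, in macrophage-like cells that pass or do not pass the monocyte gate, and in Kupffer cell-like cells; points are the value of a library and bars its 95% counting interval. Mmp8 and Mmp19 are lower in the yap1 library in both monocyte-like groups, Mmp14 and Timp2 are higher in macrophage-like than in monocyte-like cells of both libraries, and Mmp12 is read mostly in macrophage-like cells without the monocyte gate and Kupffer cell-like cells.

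Mmp12 (ENSMUSG00000049723, chr9:7344381-7369499), the macrophage elastase, was lower in Kupffer cell-like cells of the yap1 library. These resident macrophages held 199 UMIs in 48 of 399 cells and 42 UMIs in 12 of 203 cells, 127 CPM (110.2 to 146) and 45.2 CPM (32.6 to 61.1). The ratio was 0.355 (0.248 to 0.497) and was past 1.5-fold under 10 of 10 alternatives, between 0.124 and 0.408. The most loaded cells held 29 and 29 UMIs in the wild-type library and 16 and 7 in the yap1 library. Thinned shares were 7.16% (4.69 to 10.4%) and 3.87% (1.57 to 7.81%), whose intervals overlap. Most Kupffer cell-like cells of either library thus held no Mmp12 UMI, and the transcript sat in a minority.

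In monocyte-derived macrophage-like cells the Mmp12 difference rested on 1 cell. The class held 535 and 405 UMIs, 106 CPM (97.6 to 116) and 49.3 CPM (44.6 to 54.3), with a ratio of 0.463 (0.406 to 0.528). A wild-type cell with 85306 UMIs in all, which held 6 of 6 macrophage markers and 2 Kupffer cell markers, gave 385 of the 535 Mmp12 UMIs. Without the leading cell of each library 150 and 304 UMIs remained, 30.3 and 37.1 CPM, and the ratio was 1.22 (1.003 to 1.498). Similar shares of cells held a UMI, 9.14% and 8.52%, or 3.24% (1.69 to 5.60%) and 3.05% (1.75 to 4.90%) after thinning. Whether that cell is 1 cell or several was not tested; its doublet score was outside the top 4%.

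The macrophage-like groups differed in Mmp12. Cells that also passed the monocyte gate, 185 and 325 in number, held 12 and 134 UMIs in 6 and 15 cells, 4.37 and 23.3 CPM, with a ratio of 5.32 (2.95 to 10.6). Without their leading cells, which held 6 and 38 UMIs, the ratio was 7.64 (3.38 to 21.3), with only 6 wild-type UMIs left. The 187 and 203 cells that did not pass the monocyte gate held 523 and 271 UMIs, 229 and 110 CPM, with a ratio of 0.480, and 1.11 (0.884 to 1.40) without the leading cells. Among cells that still passed the monocyte gate, Mmp12 was thus read in 6 of 185 and 15 of 325. These shares, 3.24% (1.20 to 6.93%) and 4.62% (2.61 to 7.50%), have overlapping intervals, so they give no order. Monocyte-like cells themselves held 13 and 11 UMIs, and lymphocyte-like, endothelial-like and hepatocyte-like cells between 0 and 6.

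**Figure D5:**
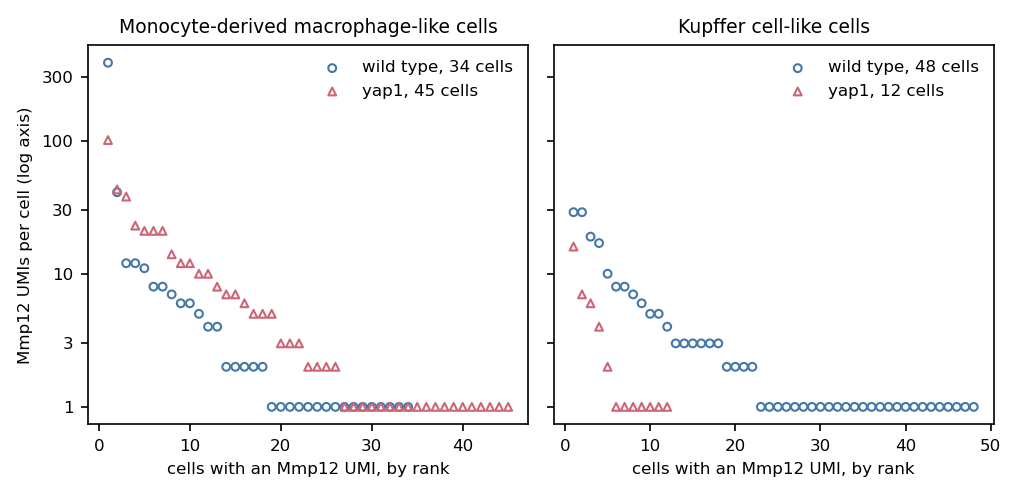
Mmp12 UMIs per cell (log axis) of every cell with at least 1, ranked within a library, in monocyte-derived macrophage-like (left) and Kupffer cell-like cells (right). The wild-type cell with 385 UMIs stands far above the next one at 41 in the left panel, while in the right panel 48 wild-type and 12 yap1 cells hold a UMI and none more than 29.

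Mmp13 (ENSMUSG00000050578, chr9:7272514-7283331), the main interstitial collagenase of rodents, was detected in few cells. Monocyte-derived macrophage-like cells held 34 UMIs in 8 cells and 35 UMIs in 14 cells, 6.76 CPM (4.68 to 9.45) and 4.26 CPM (2.97 to 5.92), with a ratio of 0.630 (0.381 to 1.04). The intervals overlap, and without the 5 cells with most Mmp13 in each library the ratio was 1.68. Of the 8 and 14 cells with Mmp13, 2 and 6 also held Mmp12. Kupffer cell-like cells held 3 and 9 UMIs, 8 of the 9 in 1 cell. At this depth a difference in Mmp13 was not detectable.

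Mmp14 (ENSMUSG00000000957, chr14:54431612-54445364), the membrane-bound proteinase, was highest in sinusoidal endothelial cell-like cells. They held 289 and 169 UMIs, 239.5 CPM (213 to 269) and 189.7 CPM (162 to 221), with a ratio of 0.792 (0.651 to 0.961). Macrophage-like cells came next at 104 CPM (94.9 to 113) and 87.9 CPM (81.6 to 94.6), with a ratio of 0.849 (0.757 to 0.952), followed by Kupffer cell-like cells at 78.0 CPM (64.8 to 93.1) and 46.2 CPM (33.5 to 62.3). The Kupffer ratio of 0.593 (0.409 to 0.846) was past 1.5-fold, but it was 1.17 with cells thinned to 1000 UMIs, where 6.30% and 6.08% of cells held a UMI. The order of these 3 classes held beyond the intervals in both libraries.

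Mmp14 in monocytes pointed the other way. Monocyte-like cells held 87 and 175 UMIs, 24.5 CPM (19.7 to 30.3) and 35.0 CPM (30.02 to 40.6), with a ratio of 1.43 (1.10 to 1.87), in a class whose macrophage markers stood at 1103 and 2034 CPM. In those with under 3 shared macrophage markers the levels were 18.5 and 34.8 CPM, with a ratio of 1.88 (1.285 to 2.80), and in those with at least 3 they were 33.4 and 35.3 CPM. With classes from clusters the ratio for monocyte-like cells was 0.646, so its direction depended on how the class was drawn. Macrophage-like cells that also passed the monocyte gate showed 110.4 and 80.9 CPM, with a ratio of 0.733 (0.633 to 0.850). Conventional dendritic cell 2-like cells, antigen-presenting cells, held 38 and 14 UMIs, 32.7 CPM (23.1 to 44.8) and 10.8 CPM (5.91 to 18.1), with a ratio of 0.331 (0.166 to 0.625). With classes from clusters it was 0.616, and the 5 markers of migratory dendritic cells in the gated class stood at 169 and 64.9 CPM, whose part in it was not tested. T cell-like cells held 0 and 0, which allows up to 1.14 and 1.03 CPM.

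Timp2 (ENSMUSG00000017466, chr11:118301069-118355740, minus strand) was the broadest of the 9 and was within 1.5-fold between the libraries in all but 1 of the 8 classes counted. Macrophage-like cells held 1037 and 1489 UMIs, 206 CPM (194 to 219) and 181 CPM (172 to 190.5), with a ratio of 0.878 (0.811 to 0.9515). Neutrophil-like cells stood at 164 and 163 CPM, plasmacytoid dendritic cell-like cells at 139 and 129.5 CPM, and Kupffer cell-like cells at 107 and 92.5 CPM. Monocyte-like cells at 68.5 and 75.2 CPM and nonclassical monocyte-like cells at 71.0 and 62.0 CPM did not differ beyond their intervals from each other. T cell-like cells held 32.3 and 28.5 CPM, well above the 1.78 and 2.05 CPM of B cell-like cells. In these 7 classes the ratios lay between 0.861 and 1.10.

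The exception for Timp2 came from 1 barcode. Sinusoidal endothelial cell-like cells held 9 and 30 UMIs, 7.46 and 33.7 CPM, with a ratio of 4.52 (2.09 to 10.8). A yap1 cell gave 24 of the 30, and without the leading cell of each library 8 and 6 UMIs remained, 6.64 and 6.82 CPM. Within macrophage-like cells Timp2 was higher in those without the monocyte gate, at 262 and 207.5 CPM, than in those with it, at 159.9 and 169.8 CPM, and the ratio in the former was 0.792 (0.702 to 0.893). Across monocyte-like and macrophage-like groups Timp2 and Mmp14 were both higher with the macrophage gate.

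Timp3 (ENSMUSG00000020044, chr10:86300372-86349506), the matrix-bound inhibitor, was an endothelial transcript with close levels in the libraries. Sinusoidal endothelial cell-like cells held 901 UMIs in 406 cells and 646 UMIs in 309 cells, 747 CPM (699 to 797) and 725 CPM (670.4 to 783). The ratio was 0.971 (0.877 to 1.08), and it lay between 0.943 and 1.09 under 10 alternatives. Thinned shares were 40.1% (34.6 to 45.7%) and 42.2% (35.9 to 48.7%). Every other compared class stood at 1.6 CPM or less. The few barcodes of other endothelial-like cells, 11 and 8, held 50 and 16 UMIs, and mesenchymal-like cells, 16 and 10, held 54 and 43. Over all kept barcodes Timp3 stood at 43.6 and 26.0 CPM, with a ratio of 0.597, although the level within sinusoidal endothelial cell-like cells hardly differed; these cells were 8.38% and 7.45% of kept barcodes and had median depths of 1902.5 and 2059 UMIs, beside 4115 and 5323 over all.

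Timp1 (ENSMUSG00000001131, chrX:20870166-20874735), the inhibitor best known from activated stellate cells, was sparse outside the mesenchymal-like cells. Those 16 and 10 barcodes, too few to compare, held 41 and 86 UMIs, 420 CPM (302 to 570.1) and 731 CPM (585 to 903). Of the 86 UMIs, 52 and 29 came from 2 barcodes whose doublet scores were in the top 4% and which held 4 of 10 mesenchymal markers each. Macrophage-like cells held 39 and 43 UMIs, 7.76 CPM (5.52 to 10.6) and 5.23 CPM (3.78 to 7.04), with a ratio of 0.674 (0.427 to 1.07), and 17 and 16 of the UMIs came from 1 cell each. Giving each cell equal weight brought it to 0.996, and taking classes from clusters to 1.43, so it gives no stable direction. A further 90 yap1 UMIs sat in 1 barcode that passed the gates of several lineages. The Timp1 ratio of 1.73 over all kept barcodes comes largely from 3 yap1 barcodes, with 90, 52 and 29 of the 261 yap1 UMIs.

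The other Mmp genes were sparse, while some other genes of the system were not. Over all kept barcodes Plaur held 10118 and 8377 UMIs and Adam10 3129 and 3838. Of 15 other Mmp genes, 2 had at least 20 UMIs in macrophage-like cells and 1 each in Kupffer cell-like and neutrophil-like cells. Mmp27, the neighbor of Mmp8 on chromosome 9 (chr9:7571396-7581885), stood at 56.9 and 46.2 CPM in Kupffer cell-like cells, and Mmp25, a membrane-anchored neutrophil proteinase, at 11.3 and 10.01 CPM in neutrophil-like cells. The gelatinase Mmp2 had 47 and 21 UMIs in mesenchymal-like cells. Of 8 genes of the plasmin system and serine proteinases, 5 were counted in monocyte-like cells and 3 were lower, the azurophil proteinases above, beside 5.95 percent of all genes. In conventional dendritic cell 2-like cells 3 of 3 counted were lower, beside 10.2 percent of all genes, among them Plaur, the urokinase receptor, with a ratio of 0.476 (0.385 to 0.587). Of 12 ADAM and ADAMTS genes 0 of 6 counted passed 1.5-fold in macrophage-like or in monocyte-like cells. Beside this stood 6.36 percent lower and 5.24 percent higher of all genes in the former, and 5.95 and 7.38 percent in the latter. With so few genes, 0 is near these shares. In some other classes 1 or 2 genes of the list passed, such as 2 of 9 higher in sinusoidal endothelial cell-like cells, beside 6.93 percent of all genes.

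The matrix genes and regulators were followed as well. In sinusoidal endothelial cell-like cells 6 of 12 matrix genes were counted and 2 were lower, Fbn1 (0.486) and Col5a2 (0.577), beside 9.44 percent of all genes, while Sparc stood at 2478 and 2271 CPM. Fn1, fibronectin, was at 19.2 and 121.5 CPM in Kupffer cell-like cells, with a ratio of 6.34 (4.20 to 9.82), with monocyte markers there at 96.5 and 318 CPM. Of 14 regulators of transcription known to act on these genes, 13 were counted in macrophage-like cells; 1, Ets1, was lower (0.569) and 0 higher, beside 6.36 percent and 5.24 percent of all genes. In sinusoidal endothelial cell-like cells 3 of 11 were lower, again beside 9.44 percent, among them the AP-1 genes Jun (0.485) and Junb (0.640). In Kupffer cell-like cells 3 of 13 were lower, among them Fosb (0.489) and Mitf (0.4205), and 1, Jund (1.60), was higher, beside 9.16 percent lower and 9.94 percent higher over all genes, so the single higher gene is near the background share.

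Genes with the most similar pattern were ranked over 22 points, 11 classes in 2 libraries, among 10065 genes, by Pearson correlation of log2(CPM + 10). Points of a library share its depth and free RNA, so the values only describe. Mmp13 and Timp1 stayed under 10 CPM, the constant added, in every compared class, so their neighbors are read from values near the floor. The correlations of Timp3 and Mmp9 rest mostly on the points of the single class where each was high. Closest to Mmp8 were Tarm1 (r = 0.988), Acta2 (0.987) and Tnfaip6 (0.978), and closest to Mmp9 Chil1 (0.981), Il1f9 (0.980) and Hcar2 (0.974). Mmp12 was closest to Fblim1 (0.954), Mmp13 to Ccl7 (0.872), Mmp14 to Tmem106a (0.952) and Mmp19 to Nt5dc2 (0.842). Timp2 was closest to Snx18 (0.895), Timp1 to Wdsub1 (0.784), and Timp3 to Adamts1 (0.9997), itself a secreted metalloproteinase, and to the endothelial gene Mmrn2 (0.9997).

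Of the 9 genes, 5 overlap another gene, and the sources used here do not give whether reads were counted by strand. Timp1 lies within Syn1 on the other strand, which held 43 and 36 UMIs over all kept barcodes, 25 and 14 of them in Kupffer cell-like cells, where Timp1 held 1 and 0. Timp3 lies within Syn3, with 11 and 13 UMIs, Mmp12 overlaps Mmp1b, with 0 and 0, Mmp19 overlaps Gm47093 and Tmem198b, and Timp2 contains Cep295nl on its own strand. How many reads of an overlapping gene were counted for these genes was not tested.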

How the data were processed

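The deposited files hold whole UMI counts per gene and barcode for 2 libraries, with no normalization, per the file headers. The submitters' processing notes name mm10, Bowtie 0.12.2 and Seurat, without roles; the counting program and its use of strand are not given in the sources used here. A barcode was kept if it held 500 UMIs and 200 genes or more, with no more than 20% of UMIs from mitochondrial genes. Cells were classed by 20 gates on fixed marker lists, and barcodes that passed gates of several lineages (248 and 219), tied (28 and 21) or passed none (259 and 184) were left out. Scrublet's automatic call marked 0.0619% and 0.0964% of barcodes and was taken not to have worked.

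Counts were summed per class and library and divided by the class total (CPM). Poisson, binomial and ratio intervals are exact at 95%. A member and class entered the comparison with at least 20 UMIs over both libraries, and 1.5-fold was the limit of size. A count of 0 was given the upper limit of 3 counts. The members and gene lists were chosen with earlier results of these data known. Named were the 9 members; up to 3 genes per list and class with at least 50 UMIs and the largest ratio past 1.5-fold, except the values of Mmp2, Mmp25, Mmp27 and Sparc and the splitting genes Ngp, Camp, Ltf and Lcn2, which were picked after their values were seen; and the 3 genes most similar to a member, among genes with at least 200 UMIs, on log2(CPM + 10). Not every gene that this rule names is reported here. Shares of cells were compared after thinning to 1000 UMIs.

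Alternatives were a stricter filter (1000 UMIs, 500 genes, 10% mitochondrial), no filter, leaving out the top 4% of doublet scores, Leiden clusters, a stricter gate, median-of-ratios scaling, equal weight per cell, thinning, leaving out the 5 cells with most UMIs and other UMI minimums. Added after the data were seen were leaving out the 1 leading cell and the splits of neutrophil-like, monocyte-like and macrophage-like cells. On simulated counts of 10222 genes in macrophage-like cells the ratio intervals covered 95.7% of true values, and 200 of 200 genes changed 2-fold were recovered. The simulation drew Poisson counts, which the intervals assume, and changed only genes with at least 200 UMIs. It therefore checks the calculation only. It does not show how the intervals do where 1 cell holds most UMIs of a gene, or how well changed genes near 20 UMIs are recovered. Positions are from GENCODE M21 (GRCm38, named mm10 elsewhere) and promoter sequences from RefSeq (GRCm38.p6). The tools were scanpy 1.11.5, leidenalg 0.10.2, igraph 0.11.9, scikit-learn 1.9.0, scipy 1.17.1, numpy 2.4.6, pandas 2.3.3 and matplotlib 3.10.9 under Python 3.11.15.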

Additional observations from a re-analysis of the deposited data

How the results depend on the processing

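No paired analysis was possible because each genotype had 1 library, and for the same reason no replicate could be left out. The 33 ratios were recomputed under 10 alternatives, which gave 305 values: 271 stayed within the counting interval, 26 left it and 8, from a main value past 1.5-fold, reversed, and 25 gave no value, as thinned ratios under 20 UMIs do. Of 66 recomputed shares of cells, 52 stayed, 14 moved and 0 reversed. In all, 26 values lay on the other side of 1 than the main value, 8 of them from a main value past 1.5-fold and 18 from one within it. The 8 were Mmp14 in Kupffer cell-like cells (1.17 thinned), Mmp12 in macrophage-like cells (1.11 thinned, 1.22 without the leading cell, 1.45 without 5 cells), Mmp13 there (1.68 without 5 cells), Mmp12 in monocyte-like cells (2.33 with the stricter gate), Mmp9 in nonclassical monocyte-like cells (1.04 from clusters) and Timp2 in sinusoidal endothelial cell-like cells (0.342 without 5 cells). Among the 18 were Timp1 in macrophage-like cells (1.43 from clusters), Mmp8 in nonclassical monocyte-like cells (4.56 without the top doublet scores, 3.54 without the leading cell), Mmp14 in monocyte-like cells (0.646 from clusters), Timp2 in plasmacytoid dendritic cell-like cells (1.39 thinned) and Mmp9 in macrophage-like cells (0.609 from clusters). Their cause was not tested, except that leaving out leading cells removes the cells that held the UMIs. The 11 lower pairs became 4 of 17 when thinned, 6 of 24 without 5 cells, 7 of 21 with at least 100 UMIs and 21 of 63 with at least 1 UMI in each library, and the 4 higher pairs became 2, 4, 1 and 9; fewer or more pairs were counted in each. Under the other alternatives 8 to 13 pairs were lower and 4 or 5 higher. The share of all genes past 1.5-fold was computed for the main setting only, so the counts under alternatives have no background beside them. Low counts widen the intervals of Mmp13 and Timp1.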
